A study of Homo sapiens with 4 samples.

Results

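Aminoacyl-tRNA synthetases join each amino acid to its tRNA, and the charged tRNA then carries it to the ribosome. Human cells make separate sets of these enzymes for the cytosol and for mitochondria, all of them from nuclear genes, although GARS1 and KARS1 each make enzyme for both places. The enzymes fall into class I and class II by the fold of the catalytic domain, and several cytosolic ones assemble into the multi-synthetase complex. c-MYC, a transcription factor that dimerizes with MAX and binds the E-box CACGTG, is known for driving genes of protein synthesis, these among them. Cytosolic synthetase genes are also textbook targets of ATF4, the factor that responds to lack of amino acids.

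Here, 35 synthetase genes were examined, 19 cytosolic and 16 mitochondrial, out of 19663 protein-coding genes. They were taken from a fixed list of names. A gene was counted as bound in a library when the summit of a peak lay at most 1 kb from a transcription start site (TSS) that one of its protein-coding transcripts uses, and such a peak is called a promoter peak below. The chromatin immunoprecipitation and sequencing (ChIP-seq) libraries came from MIA PaCa-2, an established line of pancreatic ductal adenocarcinoma. Cells had received DMSO, 100 nM of the inhibitor AMG510 or 10 nM of the MEK inhibitor trametinib, each for 8 h. Each treatment had 1 c-MYC library, and DMSO-treated cells also had 1 IgG library as the control for unspecific pulldown. No group was replicated, so every difference is between 2 libraries, has no replicate check and carries no p-value.

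The peak lists ranged from 2966 peaks (IgG) and 5431 (trametinib) to 9552 (DMSO) and 10378 (AMG510), and each was called from 22700000 to 24800000 tags. A tag is an aligned read that entered peak calling. The median peak held 10 to 13 tags at its summit, and 7 or 8 were enough for a call. The 95% intervals given for tags are exact Poisson intervals, and those of ratios follow from exact binomial ones. They cover counting error only, and they are too narrow, since a fragment can enter with both of its mates.

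The sequences under the peaks are shown first, since they mark where c-MYC could touch the DNA of the bound genes. They are GRCh38 reference sequence, written 5′ to 3′ on the strand of the gene, with the named letters in capitals. The E-box CACGTG reads alike on both strands. At IARS1 and EARS2 it was found within 100 bp of a summit, 183 bp and 12 bp upstream of the canonical TSS, respectively.
IARS1, chr9:92293866-92293895: tggttcgttttcCACGTGgaggcgcaaaac
EARS2, chr16:23557348-23557377: cagggagaagccCACGTGtgctattccatc

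A weaker form, CACGCG, which reads CGCGTG on the opposite strand, lay within 100 bp of a summit at genes that had no E-box there. GARS1 holds 2 copies around its DMSO summit, each 12 bp away from it. The TARS1 copy lies 6 bp from the AMG510 summit and 91 bp from the trametinib summit. The PARS2 copy is 35 bp from a summit of DMSO alone, and the AARS1 copy lies between the summits of the drug libraries, 70 and 78 bp from them. These genes are shown as examples bound in all c-MYC libraries (GARS1 and TARS1), in DMSO alone (PARS2) and under both drugs alone (AARS1).
GARS1, distal, chr7:30594781-30594810: ccggcgccgcgtCACGCGgtggtgaatgtg
GARS1, proximal, chr7:30594805-30594834: aatgtgcggcagCACGCGcgccgcgtcgtt
TARS1, chr5:33441237-33441266: agcggccgggacCGCGTGggtcggagaagt
PARS2, chr1:54764381-54764410: aaatgaagcgagCACGCGgtgtgggcgcgg
AARS1, chr16:70289303-70289332: aggatcaggcccCGCGTGgcctggagaagc

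In DMSO, c-MYC had a promoter peak at 17 of the 35 synthetase genes, or 48.6%, in contrast to 24.2% of all protein-coding genes. The share was alike in the cytosolic genes (9 of 19, 47.4%) and the mitochondrial ones (8 of 16). The cytosolic genes were FARSA, GARS1, HARS1, IARS1, KARS1, LARS1, TARS1, VARS1 and YARS1. The mitochondrial genes were AARS2, EARS2, FARS2, HARS2, PARS2, RARS2, VARS2 and YARS2. IgG had a promoter peak at 0 of the 35, where 0.559% of all genes had one. A share of a gene list has no test here, and genes that share a peak are not independent of each other. The background, here and below, counts every protein-coding gene, active in these cells or not. No set of active genes was compared, so whether a higher share is specific to synthetase genes was not tested.

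Under the inhibitors fewer synthetase promoters were called, not all of them bound in DMSO. AMG510 had 11 (31.4%), where 15.3% of all genes had a promoter peak, and trametinib had 9 (25.7%), where 11.8% did. Thus, in each c-MYC library, the share of synthetase genes lay above the background of that library. For AMG510 this depended on the weaker peaks, since at a score above 60 it kept 1 gene (2.86%, against 2.98% of all genes). The AMG510 genes were AARS1, GARS1, IARS1, KARS1, TARS1 and VARS1 in the cytosolic set and AARS2, CARS2, EARS2, FARS2 and YARS2 in the mitochondrial set. In trametinib they were AARS1, GARS1, IARS1, LARS1, TARS1 and VARS1, with EARS2, FARS2 and YARS2. The cytosolic count was 6 under both drugs, whereas the mitochondrial count was 5 in AMG510 and 3 in trametinib. At a fold enrichment above 5, AMG510 had 4 genes and trametinib 6, 3 of them mitochondrial in each, so that the order of the drugs turned. At least 1 c-MYC library had a peak at 19 of the 35 genes (54.3%, against 31.7% of all genes).

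**Figure D1:**
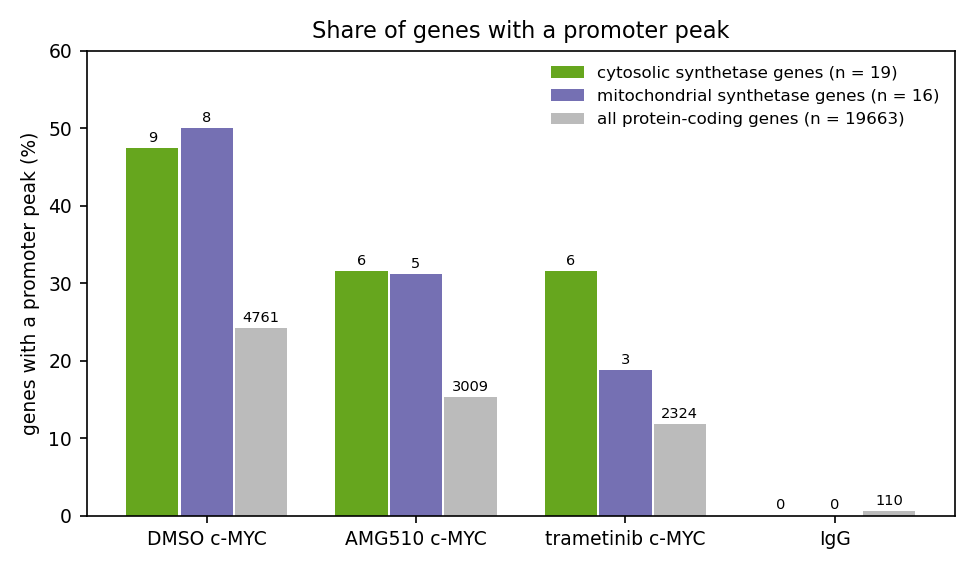
Share of genes with a promoter peak in each of the 4 libraries, in percent, for the cytosolic (n = 19) and mitochondrial (n = 16) synthetase genes and for all 19663 protein-coding genes. Numbers above the bars are genes, and both synthetase sets stand above the grey bar in each c-MYC library and at 0 in IgG.

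Of the 17 genes bound in DMSO, AMG510 had a promoter peak at 9 (52.9%, against 43.0% of all DMSO-bound genes) and trametinib at 8 (47.1%, against 35.2%). Both drugs had one at 7 genes (41.2%, against 23.1%), namely EARS2, FARS2, GARS1, IARS1, TARS1, VARS1 and YARS2. Neither drug did so at another 7 (41.2%, near the 44.9% of all genes), namely FARSA, HARS1, HARS2, PARS2, RARS2, VARS2 and YARS1. KARS1 and AARS2 were called again in AMG510 alone and LARS1 in trametinib alone. These counts are by gene, and the peaks need not overlap. With overlap required, the counts were 8 for AMG510 and 7 for trametinib, since the VARS1 drug peaks lay apart from its DMSO peak. The comparisons with AMG510 and with trametinib use the same DMSO library. Counted over the whole list, 20.0% of the genes were bound in all 3 c-MYC libraries, in contrast to 5.59% of protein-coding genes.

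By enzyme class, 8 of 18 class I genes and 9 of 16 class II genes were bound in DMSO. The remaining gene, EPRS1, encodes a fused enzyme with a part of each class and had no promoter peak. In AMG510 the counts were 5 and 6, and in trametinib 5 and 4. The shares were 44.4 and 56.2% in DMSO (24.2% of all genes), 27.8 and 37.5% in AMG510 (15.3%) and 27.8 and 25% in trametinib (11.8%). Of the 7 genes whose enzymes belong to the multi-synthetase complex, IARS1, KARS1 and LARS1 (42.9%, against 24.2% of all genes) were bound in DMSO, whereas EPRS1, MARS1, QARS1 and RARS1 had no promoter peak in any library.

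The tags at the summits gave the size of each peak. Fold enrichment is the authors' ratio of the pileup at a summit to the local background, after the same small constant is added to both. Among the 17 genes in DMSO the median was 20.0 tags (11 to 32) and a fold enrichment of 5.19, where all DMSO-bound genes had medians of 16.0 and 5.01. The highest fold enrichments were at FARS2 (7.92), YARS1 (7.78), GARS1 (7.41), TARS1 (7.33) and EARS2 (7.31). None of the synthetase peaks came near the highest promoter peak of the library, with a fold enrichment of 16.7.

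GARS1 encodes glycyl-tRNA synthetase, which charges tRNA in the cytosol and in mitochondria. Its summits held 27 tags in DMSO (95% interval 17.8 to 39.3), 15 in AMG510 (8.40 to 24.7) and 12 in trametinib (6.20 to 21.0). Fold enrichments were 7.41, 4.98 and 4.30, respectively. DMSO was highest, and the log2 ratio of depth-scaled tags reached −0.87 in AMG510 (−1.88 to 0.10) and −1.22 in trametinib (−2.33 to −0.19). The DMSO peak spans chr7:30594692-30594950, and its summit lies 71 bp upstream of the TSS, between the 2 CACGCG copies shown above. The drug summits lay 21 and 14 bp upstream, and both drug peaks overlapped that of DMSO.

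TARS1 encodes the cytosolic threonyl enzyme and had the most tags of the cytosolic set in DMSO. They numbered 32 in DMSO (21.9 to 45.2), 23 in AMG510 (14.6 to 34.5) and 17 in trametinib (9.90 to 27.2). The ratio to DMSO had an interval below 0 for trametinib, at −0.96 (−1.90 to −0.07), but not for AMG510, at −0.49 (−1.33 to 0.32). In each list this peak ranked high, above 94.1% of the DMSO peaks, 95.4% of the AMG510 peaks and 76.7% of the trametinib peaks. The DMSO peak covers chr5:33440978-33441347 with its summit in coding exon 1, 160 bp downstream of the TSS. The drug summits were in intron 1, at 280 and 195 bp.

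IARS1, the isoleucyl enzyme of the multi-synthetase complex, was the only synthetase gene with an E-box near the summit of its best peak in all 3 c-MYC libraries. Its summits held 21 tags in DMSO (13.0 to 32.1), 11 in AMG510 (5.49 to 19.7) and 12 in trametinib (6.20 to 21.0). The drug values were alike and both below DMSO, with log2 ratios of −0.95 (−2.15 to 0.17) and −0.85 (−2.01 to 0.23). These intervals hold 0, so a difference at this promoter was not detectable at this depth. The DMSO peak spans chr9:92293596-92294071, across the TSS, with its summit 204 bp upstream. Its E-box was 21 bp from the DMSO summit and 51 and 48 bp from the AMG510 and trametinib summits, which lay only 3 bp from each other.

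VARS1 encodes the cytosolic valyl enzyme, and its drug peaks stood at another place than its DMSO peak. The DMSO summit, with 29 tags (19.4 to 41.6), lay in the 5′ UTR, 10 bp from the TSS, in a peak at chr6:31795486-31795963. In AMG510 a peak at chr6:31794838-31794994 held 13 tags (6.92 to 22.2), and in trametinib one at chr6:31794828-31795067 held 18 (10.7 to 28.4). Both drug summits were in coding exon 2, 819 and 847 bp downstream of the TSS. Gaps of 491 and 418 bp parted them from the DMSO peak, whereas the drug peaks overlapped each other by 157 bp with summits 28 bp apart. The log2 ratios of −1.18 (−2.24 to −0.19) and −0.74 (−1.67 to 0.16) therefore compare different sites. An E-box lay near the DMSO summit alone. What lay beneath the calling limit at either site in the other libraries is unknown.

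Of the mitochondrial enzymes, those for phenylalanine (FARS2), glutamate (EARS2) and tyrosine (YARS2) had peaks in each c-MYC library. At FARS2 the summits held 32 tags in DMSO (21.9 to 45.2), 17 in AMG510 (9.90 to 27.2) and 20 in trametinib (12.2 to 30.9). Against DMSO the log2 ratio of AMG510 was −0.93 (−1.87 to −0.04) and that of trametinib −0.73 (−1.61 to 0.12). This peak, at chr6:5260381-5260708 in DMSO, also counts for LYRM4, the neighbour whose start is nearer. It lay upstream of the canonical FARS2 start, by 963, 952 and 843 bp in DMSO, AMG510 and trametinib, and 494, 483 and 374 bp from the nearest coding start. By that distance, which the rule uses, the farthest counted summit of the synthetase genes was the 18-tag trametinib one of VARS1, at 594 bp. The nearest not counted was a trametinib peak of 12 tags in FARSA, at 1865 bp.

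EARS2, the mitochondrial glutamyl enzyme, had 2 promoter peaks in DMSO, with 23 tags (14.6 to 34.5) at 107 bp downstream and 16 tags (9.15 to 26) at 749 bp upstream. AMG510 had a peak over the downstream site, with 13 tags (6.92 to 22.2), and trametinib had one over each, with 14 tags at both. Thus both EARS2 sites were called in trametinib and the downstream one alone in AMG510. The log2 ratios were −0.84 (−1.94 to 0.20) and −0.76 (−1.84 to 0.26), taken between the best peaks, which for trametinib is the upstream one. The printed E-box was 36 bp from the AMG510 summit and 83 bp from the downstream trametinib summit, but 119 bp from the DMSO summit and so outside the window there. UBFD1, the neighbour in the opposite orientation, shares these peaks.

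YARS2 moved least of the genes called in each library. Its summits held 21 tags in DMSO (13.0 to 32.1), 17 in AMG510 (9.90 to 27.2) and 19 in trametinib (11.4 to 29.7). The log2 ratios were −0.32 (−1.34 to 0.67) and −0.19 (−1.17 to 0.77), and fold enrichment went the other way, from 4.86 in DMSO to 5.06 and 5.44. The summits all fell in coding exon 1, at 458, 181 and 545 bp downstream of the TSS in DMSO, AMG510 and trametinib.

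**Figure D2:**
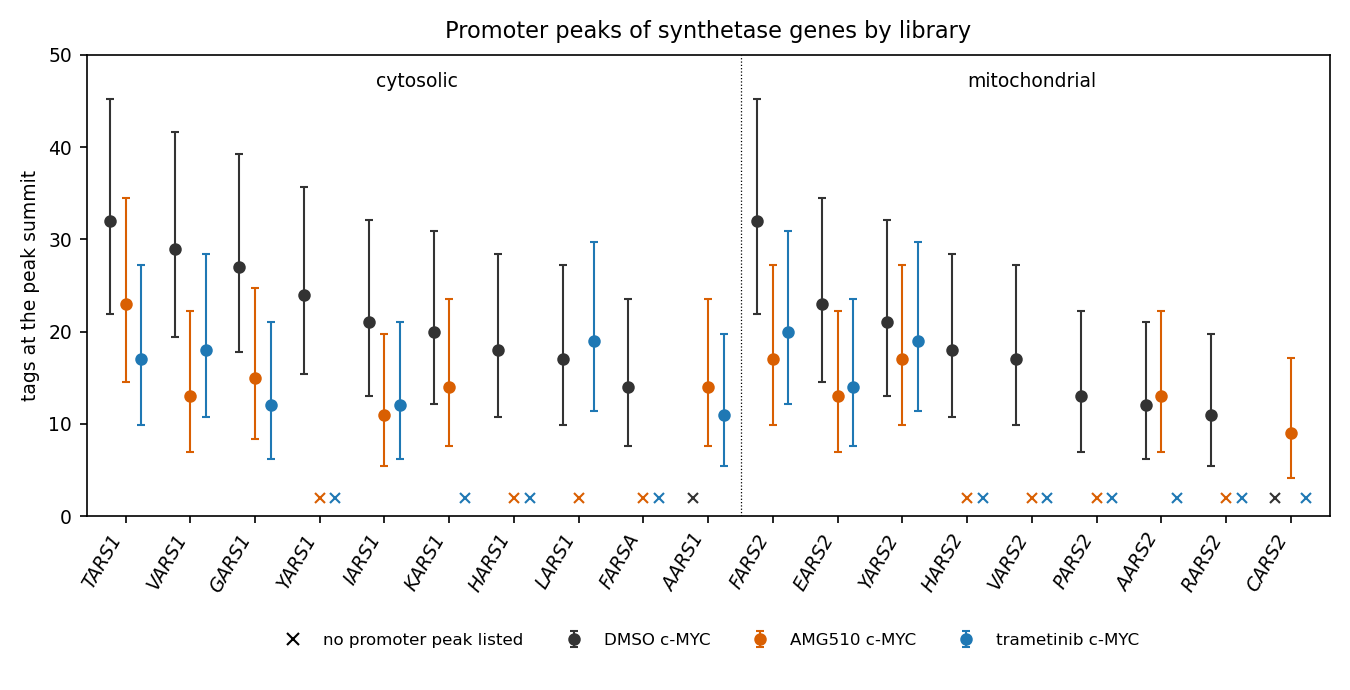
Tags at the summit of the best promoter peak for the 19 synthetase genes bound in at least 1 c-MYC library, ordered by the DMSO value within each set. Points are single libraries, bars are exact 95% Poisson intervals and crosses mark libraries with no promoter peak listed; the 7 genes with all 3 points have their highest value in DMSO.

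At the 9 genes with a promoter peak in DMSO and AMG510, 8 had fewer depth-scaled tags under the drug, with a median log2 ratio of −0.84. Over the 2045 protein-coding genes with a peak in both libraries the median was −0.49, and 88.0% were lower. At the 8 genes shared with trametinib, 7 were lower and the median was −0.75, against −0.46 over 1678 genes, 85.3% of them lower. A decrease of at least 1.5-fold was present at 5 of 9 genes for AMG510 (55.6%, against 41.3% of all genes) and at 6 of 8 for trametinib (75.0%, against 40.6%). A lower value was thus the rule for bound genes in general. A peak had to be called in both libraries to enter, which keeps the smallest ratios out. Of the 17 single ratios, 4 had an interval that did not hold 0, those of FARS2 and VARS1 in AMG510 and of GARS1 and TARS1 in trametinib. Each of these 4 intervals held the median of all genes for that drug. The ratios of VARS1 in both drugs and of EARS2 in trametinib compare peaks that do not overlap, and the counts and medians above include them. Over overlapping peak pairs only, the medians were −0.69 for AMG510 and −0.79 for trametinib. In calling, each tag was extended to 177 bp in DMSO, 157 bp in AMG510 and 163 bp in trametinib. The ratios and their intervals are not scaled for this. A longer extension can add tags at a summit, and its part in the lower drug values was not tested. Fold enrichment, used in place of tags, gave medians of −0.51 and −0.39.

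**Figure D3:**
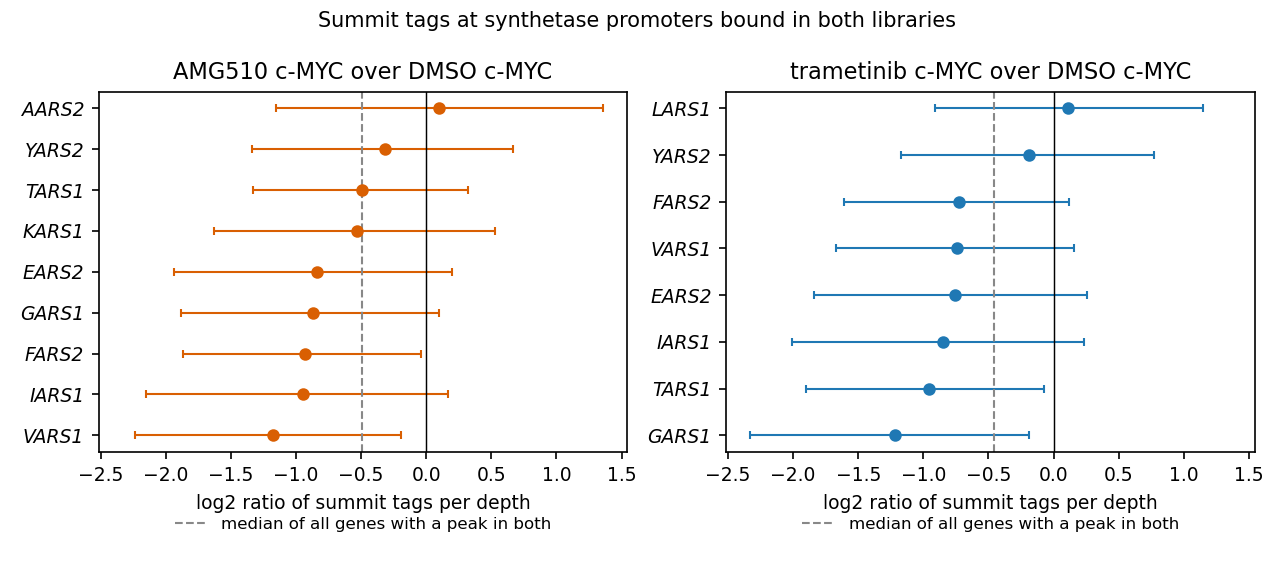
Log2 ratio of depth-scaled summit tags, AMG510 over DMSO (9 genes) and trametinib over DMSO (8 genes), with 95% counting intervals as bars. The dashed line is the median of all protein-coding genes with a peak in both libraries (−0.49 and −0.46), and AARS2 and LARS1 are the genes right of 0. The peaks compared do not overlap for VARS1 in either drug and for EARS2 in trametinib.

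Genes called again in both drugs had larger DMSO peaks, with a median of 27.0 tags and a fold enrichment of 7.31, than those called in neither, with 17.0 and 4.80. VARS1 counts here as called again, although its drug peaks stood at another place. The same order held over all genes, at 24 tags and 6.26 against 14 and 4.64. The order did not hold gene by gene. YARS2, called in both drugs, had a lower fold enrichment (4.86) than PARS2 (5.19), called in neither, and YARS1, the cytosolic tyrosyl enzyme, had the highest of the genes called in neither. Its DMSO peak, at chr1:32817166-32817426 in the 5′ UTR, held 24 tags (15.4 to 35.7) and ranked above 95.5% of the list, yet neither drug library had a promoter peak there. This peak also counts for S100PBP. By fold enrichment, the largest peaks of DMSO alone after YARS1 were at PARS2 (13 tags, fold enrichment 5.19), for mitochondrial prolyl-tRNA, and at the HARS1 and HARS2 pair (18 tags, 4.80).

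HARS1 and HARS2, the cytosolic and mitochondrial histidyl enzymes, are neighbours that start in opposite directions, and a single DMSO peak at chr5:140691006-140691289 counted for both. Its summit was 234 bp downstream of the HARS1 start and 319 bp upstream of that of HARS2. The 17 genes therefore rested on 16 separate best peaks. A peak that also counts for another gene was present at 7 of the 17 (41.2%), EARS2, FARS2, HARS1, HARS2, KARS1, RARS2 and YARS1, where 24.1% of all DMSO-bound genes had one. Which of the genes such a peak serves cannot be told apart from these data.

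The remaining DMSO-bound genes had 11 to 20 tags in DMSO. KARS1, the lysyl enzyme of cytosol and mitochondria, had 20 tags in DMSO and 14 in AMG510, in intron 1. LARS1, the leucyl enzyme of the complex, had 17 tags in DMSO and 19 in trametinib, in the 5′ UTR. AARS2, the mitochondrial alanyl enzyme, had 12 in DMSO and 13 in AMG510. FARSA, a subunit of the cytosolic phenylalanyl enzyme, had 14 tags in DMSO alone, and VARS2 and RARS2, the mitochondrial valyl and arginyl enzymes, had 17 and 11. At these sizes the interval of a single library spans a wide range, as with the 11 tags of RARS2 (5.49 to 19.7).

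A promoter peak under a drug and not in DMSO was found at 2 synthetase genes of the 18 unbound in DMSO. AARS1, the cytosolic alanyl enzyme, had 14 tags in AMG510 (7.65 to 23.5) and 11 in trametinib (5.49 to 19.7). The peaks overlapped by 110 bp in intron 1, and the trametinib peak was among the weakest of its list, above 3.26% of it. CARS2, the mitochondrial cysteinyl enzyme, had 9 tags in AMG510 (4.12 to 17.1), 518 bp upstream of its TSS. This made 11.1% of the 18 genes for AMG510, against 6.47% of all genes unbound in DMSO, and 5.56% for trametinib, against 4.33%. The AMG510 share rests on 2 genes and the trametinib share on 1. Both genes dropped out at a fold enrichment above 5 and at a score above 60. The AARS1 peaks also count for DDX19B.

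The other 16 genes had no promoter peak in any library. They were CARS1, EPRS1, FARSB, MARS1, NARS1, QARS1, RARS1, SARS1 and WARS1 in the cytosolic set and IARS2, LARS2, MARS2, NARS2, SARS2, TARS2 and WARS2 in the mitochondrial set. FARSB encodes the partner subunit of FARSA, so a single subunit gene of this enzyme was bound. The nearest DMSO summit to any of these genes was 7711 bp from a start of CARS1. Of the amino acids with separate cytosolic and mitochondrial genes, histidine, tyrosine and valine had both genes bound in DMSO, and phenylalanine had FARSA and FARS2.

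Summits sat close to the start. In DMSO the median distance to the canonical TSS was 163 bp, against 277 bp over all bound genes, and 14 of 17 summits (82.4%) were within 300 bp, against 52.7%. In AMG510 the shares were 72.7% and 52.2%, and in trametinib 55.6% and 52.6%. Of the DMSO summits, 13 were downstream of the TSS and 4 upstream. GARS1, IARS1, FARS2 and HARS2 were the upstream ones.

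**Figure D4:**
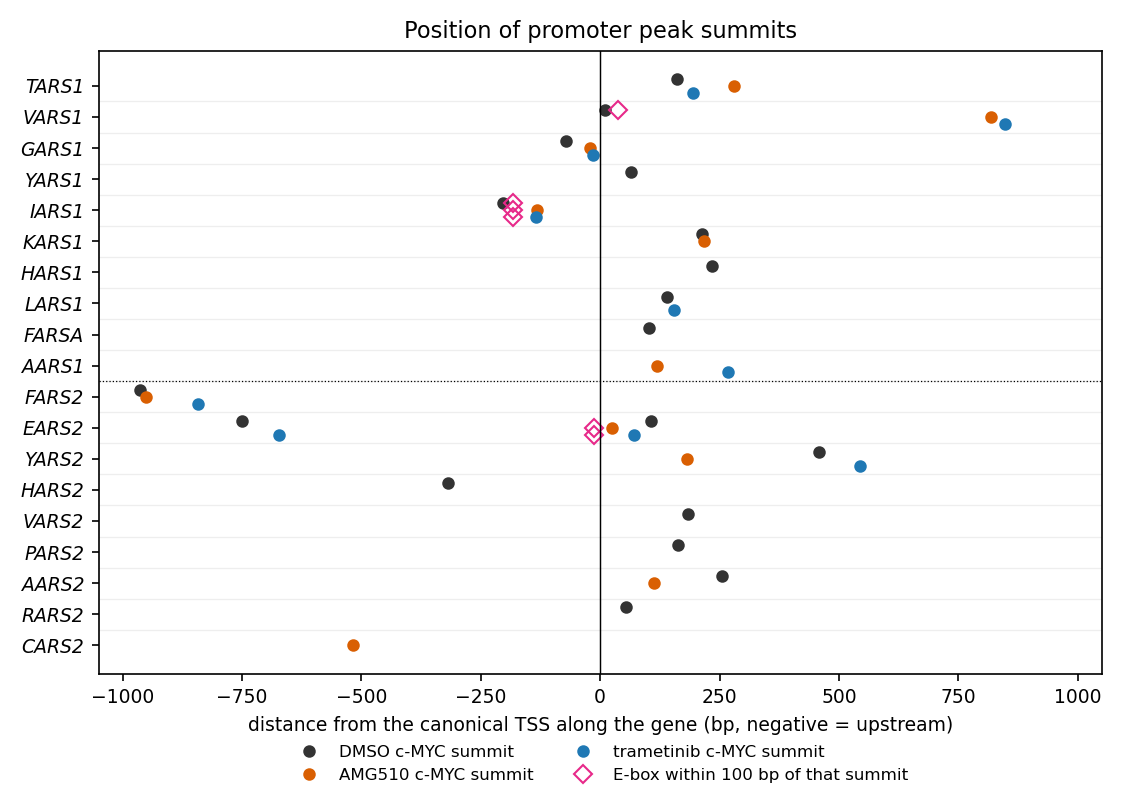
Distance of each promoter peak summit from the canonical TSS in bp along the gene, negative upstream, for the 19 bound synthetase genes, with cytosolic genes above the dotted line. Diamonds mark an E-box within 100 bp of the summit in that library. The drug summits of VARS1 stand at 819 and 847 bp, away from the DMSO summit at 10 bp.

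An E-box within 100 bp of the best summit was present at 2 of the 17 DMSO genes (IARS1 and VARS1), against 17.3% of all DMSO-bound genes. In AMG510 there were 2 of 11 (IARS1 and EARS2), against 14.5%, and in trametinib 1 of 9 (IARS1), against 17.6%. With counts of 1 or 2 genes these shares cannot be set apart from the background. When CACGCG was counted as well, either sequence was present at 6 genes for DMSO (35.3%, against 37.2% of all DMSO-bound genes), 5 for AMG510 (45.5%, against 32.7%) and 4 for trametinib (44.4%, against 35.8%). Within 50 bp the E-box alone was found at 2, 1 and 0 genes, where 10.6, 8.24 and 9.72% of all bound genes had it.

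The RefSeq promoter table (GRCh38.p14, 250 bases before to 50 after the start) held 30 of the 35 genes and 15307 protein-coding genes. LARS1, VARS1, YARS1, AARS2 and VARS2 are the others. CACGTG was in 4 of the 30 promoters (13.3%, against 8.90% of all), and CACGCG in 6 (20.0%, against 14.9%). The core of the C/EBP-ATF response element, TGATGNAA, to which ATF4 binds with C/EBP partners, was searched on both strands as well. It was in 7 of the 30 (23.3%), against 2.54% of all promoters, and 6 of these genes were cytosolic (6 of 16, 37.5%), against 1 of 14 mitochondrial genes (7.14%). The first search was for the longer TGATGNAAT, which contains the core and was in 1 of 30 (3.33%, TARS1), against 0.614%. The shorter form was chosen after that count was known, so its share is a description with no test.

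The matches are shown because they cross the c-MYC pattern. IARS1, TARS1 and YARS2 were bound in each c-MYC library, AARS1 had one under the drugs alone, and CARS1, MARS1 and NARS1 had none. At IARS1 and TARS1 the core lay 195 and 154 bp from the DMSO summit, and at YARS2 651 bp. In NARS1 and YARS2 the letters read along the gene, and in the others on the opposite strand.
AARS1, chr16:70289675-70289704: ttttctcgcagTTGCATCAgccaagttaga
CARS1, chr11:3057407-3057436: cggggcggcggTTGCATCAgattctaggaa
IARS1, chr9:92293692-92293721: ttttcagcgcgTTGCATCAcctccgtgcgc
MARS1, chr12:57488053-57488082: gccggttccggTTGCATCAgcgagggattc
NARS1, chr18:57621804-57621833: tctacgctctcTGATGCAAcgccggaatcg
TARS1, chr5:33440956-33440985: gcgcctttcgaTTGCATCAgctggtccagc
YARS2, chr12:32756076-32756105: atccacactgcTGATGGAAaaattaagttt
All but YARS2 hold the same 8 letters on either strand, and in CARS1, IARS1, MARS1, NARS1 and TARS1 they begin within 14 bp of the RefSeq start. A match is no measurement of ATF4, which was not profiled in these libraries.

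Partners of the synthetases were taken from a list of 10 genes of tRNA charging. Of these, AIMP2, EEF1E1, GATC, PSTK and TRNT1 were bound in DMSO. These 5 of 10 compare with 24.2% of all genes. Of the 5, AMG510 kept 4 (43.0% of all DMSO-bound genes) and trametinib 3 (35.2%), and IgG had 0 of the 10. AIMP2 and EEF1E1 encode scaffold proteins of the multi-synthetase complex. The AIMP2 summit held 53 tags in DMSO (39.7 to 69.3), 17 in AMG510 (9.90 to 27.2) and 28 in trametinib (18.6 to 40.5), more in DMSO than any synthetase gene. EEF1E1 held 18, 17 and 13. TRNT1, which adds the CCA end that amino acids are joined to, held 13 tags in DMSO, 13 in AMG510 and 23 in trametinib, so its order was not that of AIMP2. PSTK, which acts in making selenocysteinyl-tRNA, held 18 in DMSO and 15 in AMG510, and GATC, of the mitochondrial amidotransferase, 12 in DMSO alone. AIMP1, GATB, QRSL1, MTFMT and SEPSECS had no promoter peak.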

How the data were processed

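The authors used Trimmomatic 0.39 for trimming and BWA 0.7.17 for alignment to GRCh38, removed duplicates with Picard and called peaks for each library with MACS2 2.2.7.1, per the labels and methods. Each deposited list gives the authors' peak score, fold enrichment (the ratio to local background defined above), −log10 p-value, −log10 q-value and summit offset. Whether IgG served as control in calling is not given in the sources used here. The local backgrounds recovered from each list were whole tag counts per 10 kb at that library's own extension length (100% in each). A background taken from the library itself, with no control, would give such counts. From fold enrichment and p-value the whole number of tags at each summit was recovered (100% of peaks), with the extension length and depth of each library from the background rate, and the recovery was tested on simulated data. Tag ratios were scaled by depth and not by extension length. Genes came from GENCODE 44, with positions on the canonical transcript. Where a gene had several promoter peaks, that of highest fold enrichment was its best peak. Counts of bound genes were set beside the percentage of all genes, with no test.

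The genes and lists were chosen with earlier results of these data known. Every gene with a promoter peak was named, with values in full for those bound in all c-MYC libraries, the 5 of highest DMSO fold enrichment, the 3 highest of DMSO alone and those bound under a drug alone. Values of further genes, the search of the promoter table and the sequences other than E-boxes at DMSO summits were added after values had been seen. Alternatives were a window of 500 bp or 2 kb, a fold enrichment above 5, a score above 60, canonical starts, the nearest gene only, other E-box windows and fold enrichment in place of tags. DMSO-bound genes called under a drug were also counted with overlap of the peaks required, by 1 bp or by 50% of the shorter peak. Median tag ratios were also taken over overlapping peak pairs only. Python 3.11.15, pandas 2.3.3, scipy 1.17.1 and pysam 0.24.0 were used.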

Additional observations from a re-analysis of the deposited data

Results flagged for a closer look

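LARS1 and AARS2 were the synthetase genes with more depth-scaled tags under a drug than in DMSO, and each had no promoter peak under the other drug. The log2 ratio of LARS1 was 0.11 in trametinib (95% counting interval −0.91 to 1.15), with no AMG510 peak. That of AARS2 was 0.10 in AMG510 (−1.15 to 1.36), with no trametinib peak. Both intervals hold 0, and the difference between the drugs was not tested.

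Peaks inside a synthetase gene but away from its promoters lay outside the comparisons above. There were 3 genes with such a peak in DMSO (EPRS1, FARS2 and IARS2), 4 in AMG510 (AARS1, EARS2, LARS1 and WARS2) and 2 in trametinib (FARS2 and FARSA), against 1 in IgG (SARS1). These shares, 8.57, 11.4, 5.71 and 2.86%, were each below that of all protein-coding genes in the same library, at 9.94, 13.3, 6.59 and 5.42%. The peaks held 8 to 13 tags.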

How the results depend on the processing

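No paired analysis was possible because no group had more than 1 library, and none could be left out. The alternatives gave 78 values of 17 results, of which 58 stayed close to the reported value (counts within 1.5 times), 20 moved and 0 values changed sign. With a fold enrichment above 5, DMSO had 9 genes, AMG510 4 and trametinib 6. This kept 3 of the DMSO-bound genes in AMG510 and 4 in trametinib, and left 1 cytosolic gene in AMG510, 3 cytosolic genes in trametinib and 3 mitochondrial genes in both DMSO and AMG510. The shares of 25.7, 11.4 and 17.1% stood against 12.1, 5.75 and 4.87% of all genes, and the order of the drugs turned. With a score above 60, 9 genes stayed bound for DMSO, 1 for AMG510 and 4 for trametinib, of which 1 and 3 were also bound in DMSO, and 0 in all c-MYC libraries. These shares of 25.7, 2.86 and 11.4% stood against 9.81, 2.98 and 2.93% of all genes, so that AMG510 fell to the background. With CACGCG counted, 6, 5 and 4 genes held it or an E-box, and within 50 bp AMG510 had 1 E-box gene and trametinib 0. Fold enrichment in place of tags gave medians of −0.51 and −0.39. Both stricter thresholds keep fewer peaks by construction. The cause of the other moves was not tested.

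The genes bound in all c-MYC libraries numbered 5 within 500 bp (without VARS1 and YARS2), 3 at a fold enrichment above 5 and 6 when a peak counted for its nearest gene alone (without FARS2). When the same number of peaks, 5431, was taken from each list, a setting chosen after seeing the data, the bound genes numbered 14 for DMSO, 8 for AMG510 and 9 for trametinib (where 18.1, 10.9 and 11.8% of all genes were bound). Of the DMSO-bound genes, AMG510 then had 6 and trametinib 8, where 38.9 and 41.8% of all DMSO-bound genes were called again. The order of the drugs thus turned from that of the full lists. With 11 to 32 tags at a DMSO summit, depth limits most single ratios.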
